A study of Mus with 4 samples.

Results

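A set of 10 surface molecules that T cells use as coreceptors and costimulators was followed in liver natural killer (NK) cells of wild-type (WT) and dnTGFbRII mice. The set, listed by name, holds Cd4, Cd8a, Cd8b1, Cd5, Cd6, Cd28, Icos, Cd40lg, Cd2 and Thy1, which are 10 of the 30142 genes with a row of their own in the expression table. Each of the 10 has exactly 1 such row. The 4 Affymetrix arrays comprise 2 from WT and 2 from dnTGFbRII livers, and every array holds RNA of DX5-negative NK cells sorted from female C57BL/6 mice aged 6 to 8 weeks. DX5 binds the integrin chain encoded by Itga2, and the dnTGFbRII allele encodes a dominant-negative type II receptor for TGF-beta. In the dnTGFbRII line in wide use this transgene is driven by Cd4 regulatory sequence, but the labels do not state the promoter, the gate that defined NK cells, or whether replicate arrays stand for separate mice. The p-values therefore rest on the spread between these 4 samples alone, and that spread may be technical.

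T cells read peptide through the T cell receptor and its CD3 chains, and coreceptors and costimulators set how strongly that signal is passed on. CD4 and CD8 bind MHC class II and class I molecules and bring the kinase Lck to the receptor, CD28 and ICOS add a costimulatory signal, and CD40 ligand acts on CD40 of antigen-presenting cells. Several of these molecules are not restricted to T cells. CD2 and Thy-1 are also found on NK cells and other innate lymphoid cells, ICOS on some innate lymphoid cells, and CD8 alpha and CD4 on subsets of mouse dendritic cells.

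Of the 10 genes, 9 had both dnTGFbRII arrays above both WT arrays, 1 overlapped (Cd4) and 0 were lower. Without any filter on level, 18.6% of all 30142 genes were higher on both dnTGFbRII arrays and 12.6% were lower. The largest difference among the 10 was that of Cd8a, which was 2.14-fold higher in dnTGFbRII cells, followed by Cd28, Cd40lg and Thy1. The median difference of the 10 genes, dnTGFbRII minus WT on the log2 scale, was 0.47, beside 0.01 for all genes. All 10 differences were positive, where 55.1% of the 30142 genes were positive and 44.9% negative. Fewer cells of a type and less RNA per cell cannot be told apart in such bulk samples.

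No gene of the 10, and no gene among the 16245 whose mean lay above the median of all row means (4.22 on the log2 scale), passed an adjusted p of 0.05 in limma, 0% in either direction. At an unadjusted p under 0.05 limma gave 5 of the 8 that were tested, all of them higher in dnTGFbRII cells (Cd8a, Cd40lg, Cd28, Thy1 and Cd5), where 1.95% of the genes tested were higher and 1.29% lower (316 and 209 genes). One of the 5, Cd40lg, passed the filter only through its dnTGFbRII arrays and had to differ. The count is therefore a description, and it is 4 with Cd40lg set aside. With or without Cd40lg, it fell when either WT array or dnTGFbRII replicate 1 was left out. With each array left out in turn, the differences ranged from 0.94 to 1.26 for Cd8a and from 0.56 to 0.73 for Cd40lg. Those of Cd28 (0.57 to 1.00), Thy1 (0.46 to 0.81) and Cd5 (0.35 to 0.62) also stayed positive. An exact 2-sided permutation test of 2 arrays against 2 cannot go below p = 0.333, so differences are given with the standard error and 95% interval of the limma fit.

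**Figure D1:**
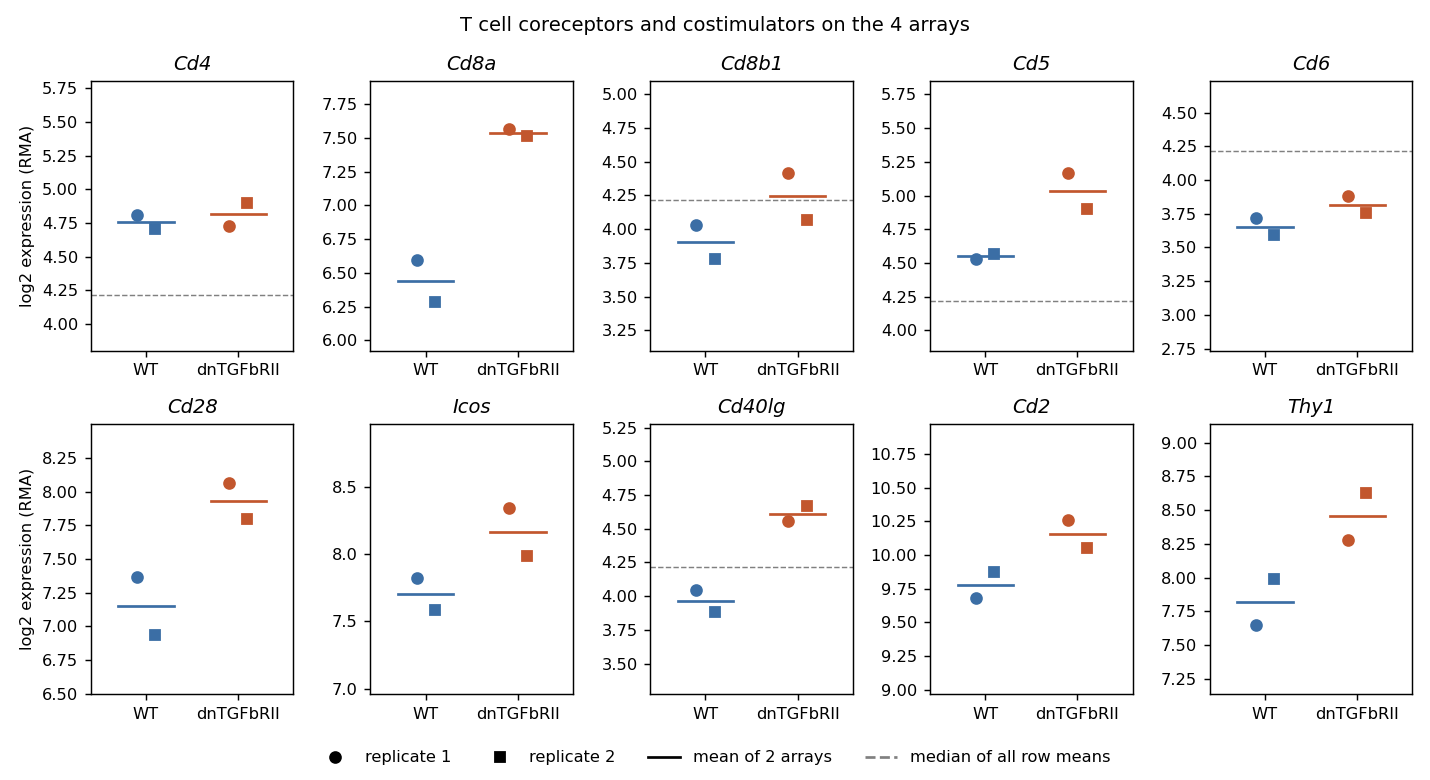
Log2 expression of the 10 genes on each array, WT in blue and dnTGFbRII in orange, with replicate 1 as circles, replicate 2 as squares and a line at the mean of 2 arrays. Every panel spans 2 log2 units, and the dashed line marks the median of all row means (4.22). The groups separate in every panel except that of Cd4.

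The level of the 10 genes limits what can be read from them. The array's 23 background control rows, whose names give the GC content of their probes, lay between 2.13 and 6.21 on the log2 scale. Cd8a, Cd28, Icos, Cd2 and Thy1 were above the highest of these rows on all 4 arrays. The other 5 genes, Cd4, Cd8b1, Cd5, Cd6 and Cd40lg, were within their range on every array. The top of that range is 1 row on each array, that of the lowest GC content (5.33 to 6.21). The median control row lay at 2.94 to 3.11, and these 5 genes were above it on every array. Which control row is the right background for their probes was not tested, so their signal cannot be told from background by level alone. Among them Cd8b1 (row mean 4.07) and Cd6 (3.74) were below the median row mean and were not tested. Cd40lg passed with a row mean of 4.29 although both of its WT values were below 4.22, as noted for the count of 5.

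Among the coreceptor genes Cd8a separated the genotypes most widely and Cd4 did not separate them, but whether their differences are unequal was not tested. Cd8a encodes CD8 alpha, the chain that forms the homodimer of innate-like lymphocytes and dendritic cells and, with CD8 beta, the heterodimer of cytotoxic T cells. It measured 6.59 and 6.28 on WT replicates 1 and 2 and 7.56 and 7.51 on dnTGFbRII replicates 1 and 2. Both dnTGFbRII arrays were thus higher by at least 0.92, while the WT arrays were 0.31 apart and the dnTGFbRII arrays 0.05 apart. The difference was 1.10 ± 0.16 (SE, n = 2 per genotype), with a 95% interval of 0.68 to 1.52 and a limma adjusted p of 1.00. Of all genes tested, 0.757% had a larger difference in either direction. The Cd8a difference stayed between 0.94 and 1.26 when each array was left out in turn. Those of Cd8b1 (0.17 to 0.51), Icos (0.28 to 0.64) and Cd6 (0.10 to 0.23) each moved by over 1.5 times with 1 array.

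Cd8b1, which encodes CD8 beta and is the direct neighbour of Cd8a on the chromosome in RefSeq (GRCm38.p6, used for names and order only), differed by less. It lay at 4.03 and 3.78 on the WT arrays and at 4.42 and 4.07 on the dnTGFbRII arrays. The groups were separated by only 0.04, and the difference of 0.34 ± 0.17 was smaller than the gap of 0.35 between the dnTGFbRII arrays. The other protein-coding neighbour of Cd8a that was tested, Rmnd5a, differed by -0.08 ± 0.25.

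Cd4, the coreceptor of helper T cells, was the one gene of the 10 whose groups overlapped. Its values were 4.81 and 4.71 in WT and 4.73 and 4.90 in dnTGFbRII cells, so that WT replicate 1 lay above dnTGFbRII replicate 1 while dnTGFbRII replicate 2 was the highest. The difference was 0.06 ± 0.13 with a 95% interval of -0.30 to 0.42, and it turned to -0.03 without dnTGFbRII replicate 2. Lag3, which encodes an inhibitory receptor for MHC class II and lies next to Cd4, differed by 0.20 ± 0.22. Zbtb7b, which encodes the factor ThPOK of the CD4 lineage, was named after its values were seen and differed by -0.11 ± 0.27. Runx3, the counterpart in CD8 lineage and NK cells, was named in the same way and differed by 0.02 ± 0.20.

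Cd5 and Cd6, neighbouring genes for a pair of scavenger receptor family proteins that tune T cell receptor signalling, were both low. Cd5 lay at 4.53 and 4.57 in WT and at 5.17 and 4.90 in dnTGFbRII cells. Both dnTGFbRII arrays were higher, replicate 1 more so, and the difference was 0.48 ± 0.15 (95% interval 0.09 to 0.88). Cd6 lay at 3.72 and 3.59 in WT against 3.88 and 3.76 in dnTGFbRII cells, a difference of 0.16 ± 0.10. The Cd6 groups were separated by only 0.04. Vps37c, on the other side of Cd5, differed by -0.11 ± 0.17, and Slc15a3, on the other side of Cd6, by 0.06 ± 0.41.

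The costimulatory receptors Cd28 and Icos, which lie on either side of Ctla4, were both higher on the dnTGFbRII arrays. Cd28, the receptor for CD80 and CD86 on antigen-presenting cells, measured 7.37 and 6.93 in WT and 8.07 and 7.80 in dnTGFbRII cells. The difference of 0.78 ± 0.21 (1.72-fold, 95% interval 0.24 to 1.33) exceeded the gap of 0.43 between the WT arrays. Icos, the receptor for ICOS ligand, measured 7.82 and 7.58 in WT and 8.34 and 7.99 in dnTGFbRII cells. Its difference was smaller, 0.46 ± 0.19, and its 95% interval of -0.03 to 0.95 included 0. In both genes replicate 1 was the higher array of each genotype.

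Ctla4, the inhibitory receptor for CD80 and CD86 that lies between them, had a larger difference than either. It measured 5.60 and 4.84 in WT and 6.43 and 6.93 in dnTGFbRII cells, a difference of 1.46 ± 0.32. On the far side of Cd28, Raph1 differed by 0.09 ± 0.13. The 3 receptor genes of this cluster were thus each higher on both dnTGFbRII arrays, and whether their differences are unequal was not tested.

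Cd40lg, whose product activates B cells, dendritic cells and macrophages through CD40, lay at 4.05 and 3.88 in WT and at 4.56 and 4.66 in dnTGFbRII cells. The difference was 0.65 ± 0.13 (95% interval 0.29 to 1.00), and the arrays of a genotype were at most 0.16 apart. All 4 values were within the range of the background control rows, as given above. Since Cd40lg passed the filter only through its dnTGFbRII arrays, it had to differ, and its interval is a description. Its tested neighbour Arhgef6 differed by -0.13 ± 0.12.

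The adhesion molecules Cd2 and Thy1 were measured well above background on every array. Cd2, which binds CD48 in mice, was at 9.68 and 9.87 in WT and at 10.26 and 10.05 in dnTGFbRII cells. The difference was 0.38 ± 0.15 with a 95% interval of -0.02 to 0.78, and the lower dnTGFbRII array was 0.17 above the higher WT array. Thy1, a glycosylphosphatidylinositol-anchored protein of T cells and innate lymphoid cells, was at 7.65 and 7.99 in WT and at 8.28 and 8.63 in dnTGFbRII cells. The difference was 0.63 ± 0.20 (1.55-fold, 95% interval 0.10 to 1.16), and replicate 2 was the higher array in both genotypes. Of the neighbours of Thy1, Nectin1 differed by -1.11 ± 0.43 and Usp2, on the other side, by 0.17 ± 0.21. Igsf3, the tested neighbour of Cd2, differed by 0.01 ± 0.12.

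**Figure D2:**
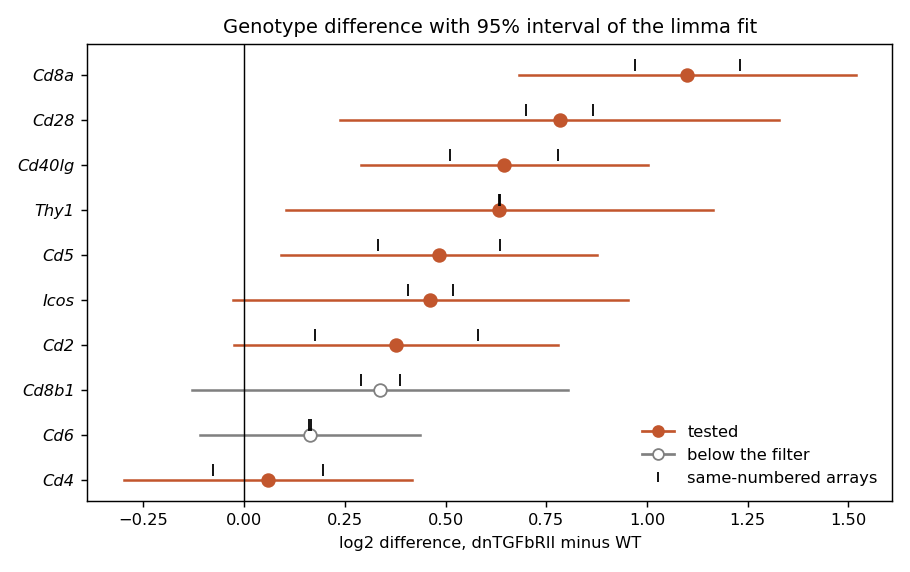
Log2 difference, dnTGFbRII minus WT, for each of the 10 genes (points) with the 95% interval of the limma fit (lines), and the differences between same-numbered arrays (black ticks). Cd8b1 and Cd6 (open grey points) were below the filter and come from the fit without it. The intervals of Cd8a, Cd28, Cd40lg, Thy1 and Cd5 lie above 0, and those of the other 5 include it. Cd40lg passed the filter only through its dnTGFbRII arrays and had to differ.

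The differences can be set against the gaps within genotypes. In 8 of the 10 genes the genotype difference exceeded both the gap between the WT arrays and that between the dnTGFbRII arrays, the exceptions being Cd4 and Cd8b1. Of all 30142 genes, 12.4% did so with a positive difference and 7.93% with a negative one. In the 9 genes other than Cd4 the distance from the higher WT array up to the lower dnTGFbRII array ran from 0.04 in Cd6 and Cd8b1 to 0.92 in Cd8a.

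For the 2 genes that spanned at least 1 log2 unit over the arrays, the protein-coding genes with the closest course were sought among 10279 tested, by the root mean square difference of mean-centred values over 4 arrays. For Cd8a they were Ly6c1 (0.11), Smpdl3b (0.12) and Crtam (0.13). Crtam, a receptor of activated NK and CD8 T cells, lay at 7.06 and 7.04 in WT and at 8.31 and 8.01 in dnTGFbRII cells, and Ly6c1 belongs to a family of close copies whose probes can share signal. For Cd28 they were Itga4 (0.05), the alpha 4 integrin chain, Odc1 (0.05), an enzyme of polyamine synthesis, and Slc25a33 (0.10). Itga4 lay at 11.34 and 10.89 in WT and at 11.97 and 11.64 in dnTGFbRII cells. With 4 arrays many genes can follow a course closely, and these are descriptions.

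Other costimulatory receptors of T and NK cells were partly higher as well. Of 15 tested, 11 had positive differences, where 47.4% of all genes tested were positive and 52.6% negative. On both dnTGFbRII arrays 6 were higher and 1 was lower, where 12.6% and 14.5% of all genes tested were. These shares are also the background for the counts of tested genes in the lists that follow. The median difference was 0.24, beside -0.01 for all genes tested, and 0.14 without WT replicate 1. The 4 with the largest test statistics were Slamf1 (0.85 ± 0.12), Slamf6 (1.28 ± 0.25) and Cd84 (0.61 ± 0.15), all receptors of the SLAM family, and Tnfrsf4 (0.32 ± 0.14), which encodes OX40. Slamf6 lay at 4.30 and 4.27 in WT and at 5.89 and 5.23 in dnTGFbRII cells. Slamf1 and Slamf6 were above the highest background control row of the array only on dnTGFbRII replicate 1. None of the 15 passed an adjusted p of 0.05 in limma, and 3 had an unadjusted p under 0.05.

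Genes that carry the signal of these receptors showed no common direction. Of 21 tested, 8 differences were positive and 13 negative. The median was -0.07 and turned to 0.03 without WT replicate 2 and to 0.08 with dnTGFbRII replicate 1 left out, and 4 were higher and 4 lower on both dnTGFbRII arrays. Fyn, a Src family kinase that binds the CD3 chains, measured 12.78 and 12.87 in WT and 13.30 and 13.40 in dnTGFbRII cells (0.52 ± 0.13). Cblb, a ubiquitin ligase that restrains signalling without CD28, differed by 0.42 ± 0.15. On the other side were the phosphatase gene Ptpn6 (-0.40 ± 0.18) and the adaptor Pag1 (-0.19 ± 0.13). Of the 21, 0 passed an adjusted p of 0.05 in limma and 2, Fyn and Cblb, had an unadjusted p under 0.05. Lck was not analysed here.

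The class II chains that CD4 binds were lower, with H2-Ab1 at 15.72 and 13.40 in WT and 11.29 and 11.73 in dnTGFbRII cells (-3.05 ± 0.79), H2-Aa at -3.01 ± 0.82 and H2-Eb1 at -3.18 ± 1.05. WT replicate 1 was the highest array for all 3. The class I genes that CD8 binds differed little, with B2m at 0.09 ± 0.12, H2-K1 at 0.02 ± 0.12 and H2-D1 at 0.01 ± 0.12, these named after their values were seen. Cd48, the ligand of CD2, differed by 0.00 ± 0.12 and Icosl, that of ICOS, by 0.32 ± 0.26.

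The ligands of CD28 and CD6 followed WT replicate 1. Cd86 lay at 9.67 and 7.77 in WT and at 7.77 and 8.08 in dnTGFbRII cells, and Alcam, the ligand of CD6, at 6.97 on WT replicate 1 and between 4.83 and 5.27 on the other arrays (-1.20 ± 0.58). Cd80 (-0.98 ± 0.63) and Cd40 (-0.33 ± 0.24), the receptor for CD40 ligand, were likewise highest on WT replicate 1. Cd40 was within the range of the background control rows on every array. Alcam and Cd80 were above the highest of these rows only on WT replicate 1. These partners, too, were named after their values were seen. Of the 18 genes in this group 9 differences were positive and 9 negative (median -0.05), 4 were higher and 5 lower on both dnTGFbRII arrays, and 0 passed an adjusted p of 0.05 in limma against 4 at an unadjusted p under 0.05.

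**Figure D3:**
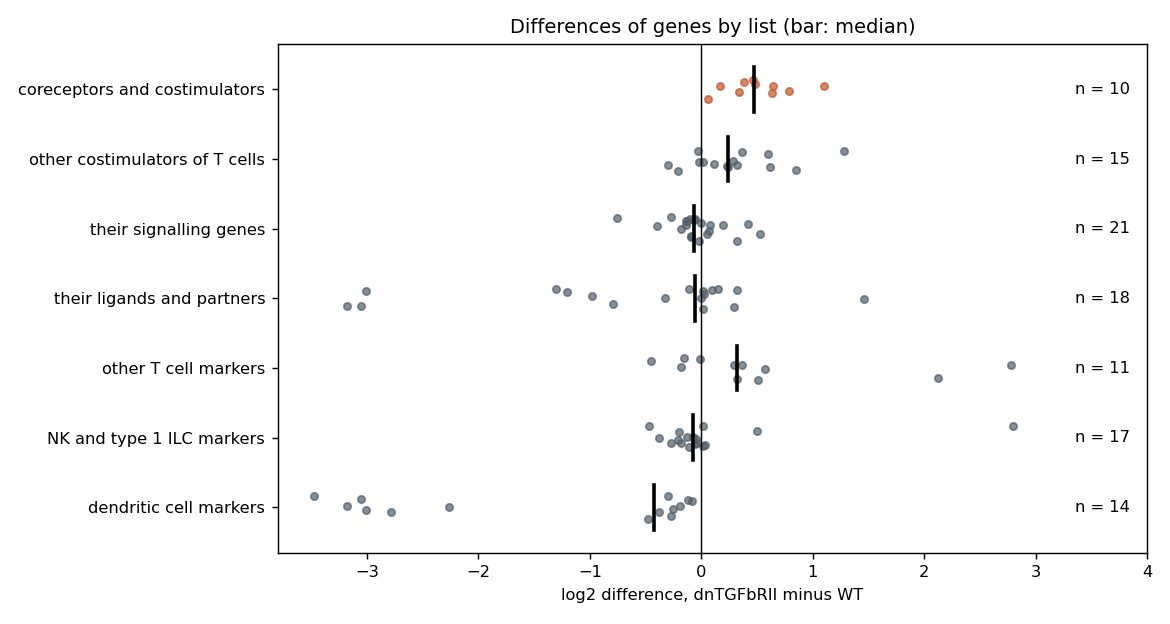
Log2 differences, dnTGFbRII minus WT, of single genes (points) in 7 groups, with a black bar at the median and the number of genes at the right. All 10 coreceptors and costimulators are shown, and only the tested genes of the other groups. The 10 genes lie above 0, the signalling genes on both sides of it, and the dendritic cell markers below it.

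The NK cell markers Ncr1 (16.87 to 17.19) and Klrb1c (16.87 to 17.22) were close together on all 4 arrays. Since the cells were sorted as NK cells by a gate that is not stated, these values are no test of the label. They also do not show whether other cells were present. Of 17 tested markers of NK cells and type 1 innate lymphoid cells, 5 differences were positive and 12 negative. The median was -0.08, and it turned to 0.04 without WT replicate 2 and 0.08 without dnTGFbRII replicate 1. Their summed level was 21.02 to 21.16 in WT and 20.93 to 21.09 in dnTGFbRII cells. Eomes (2.79 ± 0.49) and Itga2 (0.50 ± 0.16) were higher on both dnTGFbRII arrays, and Itgae (-0.47 ± 0.18) and Tnfsf10 (-0.38 ± 0.19) lower. Itgae was within the range of the background control rows on every array.

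T cell markers outside the 10 genes moved with them in part. Cd3d (2.13 ± 0.23), Cd3e (2.78 ± 0.68) and Lef1 (0.51 ± 0.13) were higher on both dnTGFbRII arrays, and Cd3g (-0.45 ± 0.13) was lower on both. Cd3e lay at 10.23 and 8.64 in WT and at 12.84 and 11.60 in dnTGFbRII cells. Replicate 1 was thus the higher array of each genotype, as for Cd8a, Cd8b1, Cd6, Cd28 and Icos. Thy1 had replicate 2 higher in both genotypes, and in Cd4, Cd5, Cd40lg and Cd2 the order differed between the genotypes. Same-numbered arrays deviated together over all genes tested (r = 0.51), so a shared order is not particular to these genes. Of 11 tested, 7 were positive, 5 were higher and 2 lower on both dnTGFbRII arrays. Of all genes tested, 47.4% were positive, and 12.6% were higher and 14.5% lower on both. The median of the 11 was 0.32. It ranged from 0.16 to 0.43 as each array was left out. The summed level, most of it from Cd3g, was 15.96 to 16.06 in WT and 15.78 to 16.03 in dnTGFbRII cells, Themis was below the filter, and Trac, Trbc1 and Trbc2 were not analysed here. The part of T cells in the differences of the 10 genes was not tested.

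Regulatory and helper T cell genes included some of the larger differences. Il2ra (0.96 ± 0.16), Ikzf2 (1.22 ± 0.21) and Tox (0.23 ± 0.13) were higher on both dnTGFbRII arrays, as was Ctla4, while Il4, Il17a, Il21 and Cxcr5 were below the filter. Of 7 tested, 5 were positive, with a median of 0.23, and over all 11 with a row the median was 0.02. The 2 negative ones were Zbtb7b, given above, and Bcl6 (-0.05 ± 0.21), while Runx3 differed by 0.02 ± 0.20. Foxp3 and Gata3 were not analysed here. Among markers of NKT and gamma delta T cells 4 of 6 tested were positive (median 0.12). Trbv13-2, a T cell receptor beta segment used by NKT cells, differed by 1.32 ± 0.36, Cd163l1 by 0.23 ± 0.13 and Zbtb16, the factor PLZF, by 0.22 ± 0.23, while Trdv4 differed by -0.18 ± 0.13. Trbv13-2 and Cd163l1 were within the range of the background control rows on every array.

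Dendritic cell markers moved the other way. All 14 tested had negative differences (median -0.43), where 52.6% of all genes tested were negative. On both dnTGFbRII arrays 6 were lower, where 14.5% of all genes tested were, among them Clec9a (-3.48 ± 1.04) and Flt3 (-2.27 ± 0.69). The 6 also include H2-Ab1, H2-Aa and H2-Eb1, the class II genes already given above, so these are not separate observations. Flt3 passed the filter only through its WT arrays and had to differ, and over all 15 with a row the median was -0.48. Their summed level was 16.64 to 17.32 in WT and 15.76 to 16.43 in dnTGFbRII cells, with WT replicate 1 highest and Xcr1 below the filter. Most of that sum on WT replicate 2 and on both dnTGFbRII arrays came from Itgax, which NK cells also express. Cd8a was 0.31 higher on WT replicate 1 than on WT replicate 2, and without WT replicate 1 its difference was 1.26. The part of dendritic cells in the values of Cd8a and Cd4 was not tested.

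Of macrophage, monocyte and neutrophil markers 7 of 8 tested were positive (median 0.62), with Ly6c2 (2.68 ± 0.37), Ngp (0.83 ± 0.22), Ccr2 (0.43 ± 0.20) and S100a9 (0.82 ± 0.48) leading. S100a9 lay at 4.42 and 4.53 in WT and at 5.99 and 4.61 in dnTGFbRII cells. Only its value on dnTGFbRII replicate 1 was above the highest background control row of the array. Ngp was within the range of the background control rows on every array. It passed the filter only through its dnTGFbRII arrays and had to differ, and over all 14 with a row the median was 0.38. The summed level was 10.66 to 11.58 in WT and 12.67 to 12.85 in dnTGFbRII cells, most of it on the dnTGFbRII arrays from Ly6c2, which lymphocytes also express, while Clec4f and Vsig4, markers of Kupffer cells, were below the filter. Of the B cell markers 3 of 9 were tested and none separated the genotypes, with Ighm at 0.17 ± 0.17, Cd79a at 0.05 ± 0.13 and Cd79b at -0.01 ± 0.15. Ms4a1 and Pax5 were below the filter, and the summed level was 14.29 to 14.63 in WT and 14.56 to 14.69 in dnTGFbRII cells. Of type 2 and type 3 innate lymphoid cell markers 2 of 7 were tested, Kit (1.99 ± 0.27) and Ncr3-ps (-0.18 ± 0.15), while Il13, Il5 and Il22 were below the filter. The only hepatocyte marker tested was Alb, which lay at 4.79 and 6.62 in WT and at 4.49 and 4.60 in dnTGFbRII cells, and the other 5 were below the filter.

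**Figure D4:**
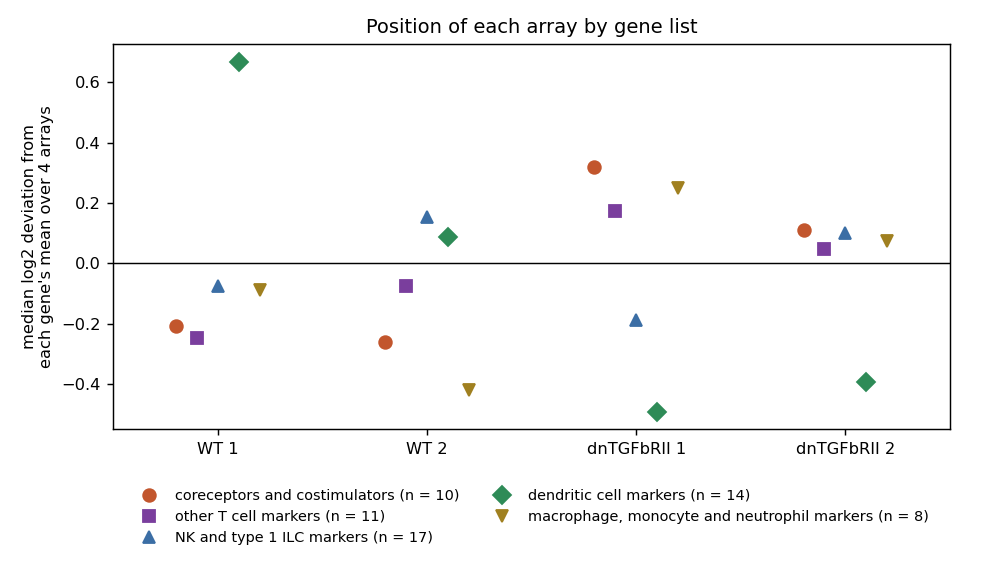
Median log2 deviation of each gene group from its genes' means over the 4 arrays, by array. The coreceptors and costimulators lie at -0.21 and -0.26 on the WT arrays and at 0.32 and 0.11 on the dnTGFbRII arrays, while dendritic cell markers are highest on WT replicate 1 (0.67).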

How the data were processed

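RNA of the sorted cells was hybridised to 4 Affymetrix arrays. The authors deposited log2 expression values, made with RMA in Affymetrix Expression Console per the submitters' processing notes. For the software versions, annotation and build: not given in the sources used here. The values were used as deposited. Array medians lay between 4.20 and 4.26. Precision is limited by having 4 arrays.

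Of 72688 rows, 30604 name exactly 1 gene in the platform annotation. Among rows naming 1 gene only, the brightest on average was kept, and the 16245 genes with a mean above the median row mean were tested in R 4.3.3 with limma 3.58.1 (a linear model per gene and moderated variances, 2-sided, Benjamini-Hochberg over all genes tested). Values of Cd8b1 and Cd6 come from the same fit without the filter. Differences are dnTGFbRII minus WT, and ± is the standard error. A summed level is log2 of the sum of unlogged values over a list's genes with a row. Scripts were tested on simulated data.

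The 10 genes and all gene lists were chosen with earlier results of these data known, so list counts and medians are descriptions without a test. Named genes are the 10, up to 4 genes per list by size of the test statistic, defining markers of cell types, neighbouring genes and the closest courses. Alternatives were other priors, filters, normalizations and row choices, the replicate number as a block, and each array left out, where a lone array takes its spread from the other genotype.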

Additional observations from a re-analysis of the deposited data

How the results depend on the processing

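Other priors, filters and row choices and the replicate block could not change a difference, since each of the 10 genes has 1 row and the design is balanced. With repeated quantile normalization, centred arrays or an array left out, the differences kept their sign, except that of Cd4. It ranged from -0.025 (without dnTGFbRII replicate 2) to 0.14 as arrays were left out. None of the 10 passed an adjusted p of 0.05 in limma under any alternative that kept all 4 arrays. The count of the 10 higher on both dnTGFbRII arrays was 9, and it was 5 of 5 with a stricter filter (the 75th percentile of means), where 9.44% of genes were. Leaving out single arrays gave 9 or 10, with 33.9% to 40.6% of all genes, since fewer arrays overlap less. That share was 14.1% after repeated quantile normalization and 13.9% with arrays centred on their medians, against 18.6%. Over all genes, 0 passed the adjusted threshold except without WT replicate 2, which gave 6, so leaving out arrays gave 0 to 6.

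The genes higher and lower at an unadjusted p under 0.05 numbered 790 and 469 without a filter and 109 and 75 with the stricter filter. Leaving out single arrays gave between 159 and 607 higher and between 67 and 353 lower. Same-numbered arrays deviated together (r = 0.5105 across genes), but with 2 pairs and no label saying what the number marks they share only a number. With a replicate block, 757 of the 16245 genes tested were higher and 710 lower at an unadjusted p under 0.05 in limma. Among them were 7 of the 8 tested coreceptors and costimulators, or 6 without Cd40lg, which had to differ.

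Without a filter the medians of the NKT and gamma delta, the regulatory and helper T cell, and the macrophage, monocyte and neutrophil lists were 0.024, 0.023 and 0.38, and with the stricter filter the dendritic cell median was -2.78. With arrays centred, the NKT and gamma delta median was 0.10. With single arrays left out, medians ranged from 0.066 to 0.096 for that list, from 0.16 to 0.43 for T cell markers, from -0.19 to 0.078 for signalling genes, from 0.14 to 0.26 for other costimulators, from -0.22 to 0.079 for NK cell markers, from -0.20 to -0.0058 for ligands and partners, from -0.86 to -0.37 for dendritic cell markers and from 0.20 to 0.78 for macrophage, monocyte and neutrophil markers. Level limits Cd4, Cd8b1, Cd5, Cd6 and Cd40lg, which lie within the range of the background control rows.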
